A study of Caenorhabditis elegans with 2 samples.

Results

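Small nucleolar RNA (snoRNA) genes that lie inside protein-coding genes were examined for sites occupied by NHR-237 in embryos of the nematode Caenorhabditis elegans. The genes were taken from the WBcel235 annotation (Ensembl release 115) as those of biotype snoRNA whose whole span lies within a protein-coding gene on the same strand. The rule was met by 183 of the 346 annotated snoRNA genes, in 159 host genes. A host held 1 member in 136 cases, 2 members in 20, 3 members in 2 and 4 members in the gene nol-56 alone. Both samples, the 2 biological replicates of a single group, came from mixed-stage embryos of strain OP228, genotype unc-119(ed3) III with the integrated transgene wgIs228. That transgene supplies NHR-237, a nuclear hormone receptor, fused to enhanced green fluorescent protein (eGFP). The embryos were of both sexes and were used whole, so occupied sites are not resolved by tissue, and the sources used here do not name the promoter that drives the transgene. A control lacking the fusion protein was not analysed here.

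SnoRNAs guide the chemical modification of ribosomal and other RNAs. Box C/D snoRNAs direct ribose methylation and are bound by fibrillarin, and box H/ACA snoRNAs direct pseudouridylation and are bound by dyskerin. In animals most snoRNAs lie in introns of protein-coding genes, many of them genes for ribosomal and nucleolar proteins, and are released from the spliced intron of the host transcript, so that the host promoter makes both. A snoRNA gene in an intron can instead have a promoter of its own. In nematodes some are transcribed by RNA polymerase III from A and B box elements like those of transfer RNA genes.

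Peaks came from the list thresholded by irreproducible discovery rate (IDR), a procedure based on how peaks rank in different lists. It held 1626 peaks, 1611 of them on the nuclear chromosomes, with a signal value of 72.6 to 812 and a median of 105. The signal is the value deposited with each peak by the authors. It ranks peaks within a list and is not scaled between lists. A window spanned 500 bp before and 200 bp after a 5′ end, and a gene counted as having a peak where a summit lay in it. Each member was given a window of its own 5′ end and the windows of all 5′ ends of its host's protein-coding transcripts. The windows overlapped for 61 members and did not for 122. Read depth was not analysed here. Replicate 1 listed 10872 peaks, replicate 2 listed 30000 and the pooled list 30000, and these lists include background regions. The count of exactly 30000 may be a limit on list length, and its part in what those lists lack was not tested.

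Peaks near hosted snoRNA genes were of 2 kinds, at the snoRNA's own 5′ end and at the promoter of the host, and the second kind was the more common. Of the 183 members, 59 had an IDR summit in either window and 124 had none. The summit was in the host's window only for 40 members, in the member's own window only for 6 and in both windows at once for 12. The remaining 1, C05D2.15, had a separate summit in each. Host windows cover every annotated start of the host. At K02F3.15 in zip-2 and K02B9.10 in alg-1 the host summit lay 480 and 1686 bp downstream of the snoRNA 5′ end. In all, 19 members, or 10.4% (95% Clopper-Pearson interval 6.37 to 15.7), had a summit in their own window. The share was 18.5% (24 of 130, interval 12.2 to 26.2) for snoRNA genes outside protein-coding genes and 9.09% (3 of 33) for those inside a protein-coding gene on the other strand only. It was 3.49% (49 of 1403) for other non-coding genes inside a protein-coding gene on the same strand. For all non-coding genes except piRNA genes and pseudogenes it was 4.78% (451 of 9426). These shares count any summit in the own window, also one at a host promoter. For 7 of the 183 members, or 3.83%, a summit lay outside every host window. The same count was not made for other hosted non-coding genes, so 3.83% has no matching background here. Hosts had a summit in a window of their own 5′ ends at 40 of 159 genes, or 25.2% (18.6 to 32.6), beside 6.69% (1336 of 19973) of all protein-coding genes. These shares are counts of genes with intervals for counting error only. Genes that share a peak are not independent, and no test was run on them. With a window of 300 bp before and 100 bp after the 5′ end 12 members had a summit in their own window, and with 1000 bp and 200 bp 38 had one.

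**Figure D1:**
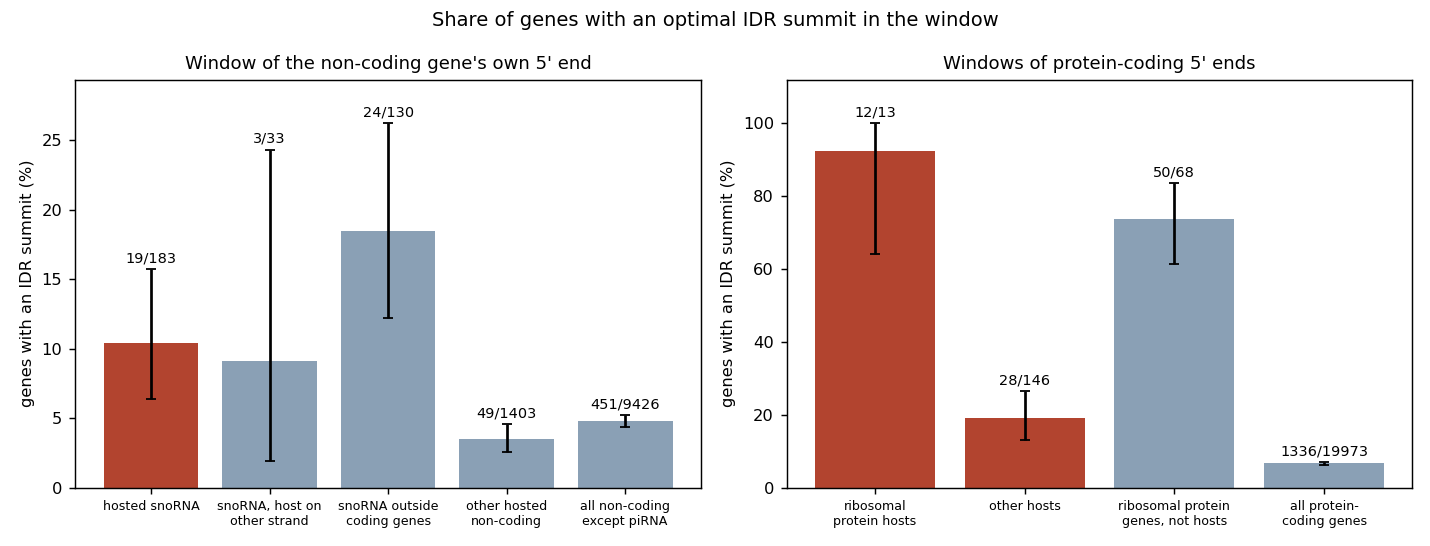
Percentage of genes with an IDR summit in the window, with 95% Clopper-Pearson intervals and counts above the bars, for windows of non-coding genes (left) and of protein-coding genes (right). Hosted snoRNA genes reached 10.4%, other hosted non-coding genes 3.49%; of the hosts, 12 of 13 cytosolic ribosomal protein genes and 28 of 146 others had a summit.

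The 19 members with a summit in their own window fell apart by distance. For 10 of them the summit was nearer to the snoRNA 5′ end than to any 5′ end of the host, at 2 to 103 bp (median 48). For all 10 the peak overlapped the snoRNA, and C51F7.3 and C51F7.4 shared a peak. For the other 9 the summit was nearer to the host, at 82 to 317 bp from its 5′ end and 143 to 483 bp from that of the snoRNA, and 1 of the 9 peaks overlapped the snoRNA. Nearness was chosen as a description after the summits were seen. For 40 of the 46 different IDR summits at members or hosts the deposited summit was the middle of the peak, so distances well below the peak width are not resolved.

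**Figure D2:**
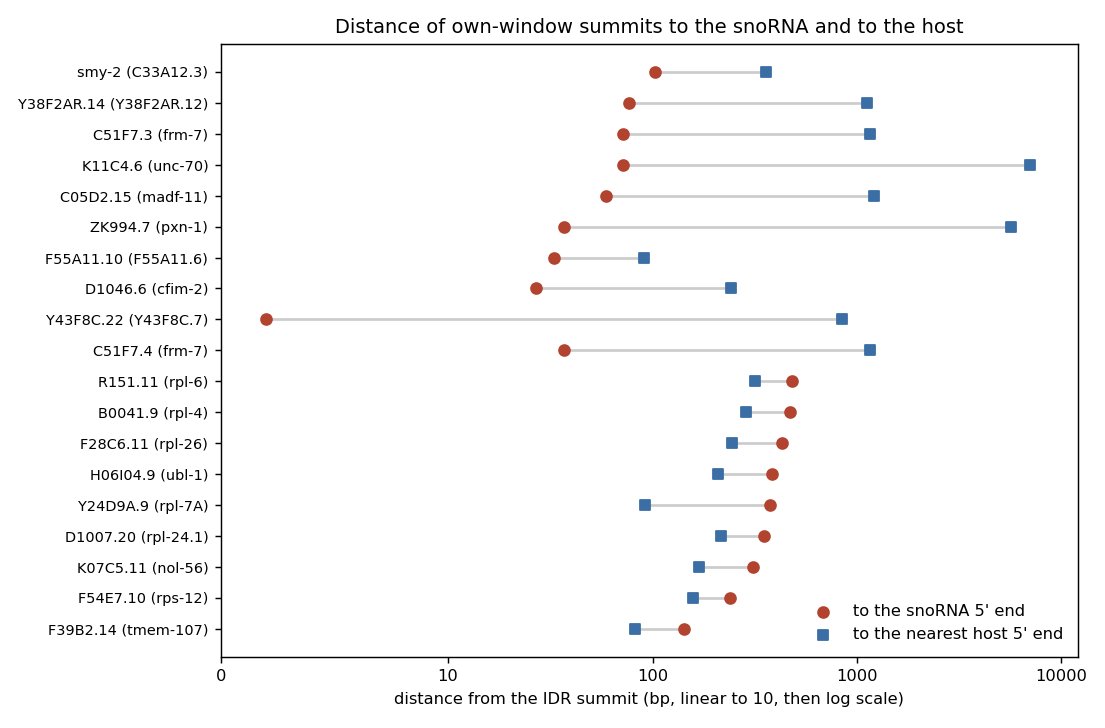
Distance in bp from each own-window IDR summit to the 5′ end of the snoRNA (circles) and to the nearest 5′ end of its host (squares), for 19 members named with their host. In the upper 10 the circle lies at 2 to 103 bp; in the lower 9 the square lies closer, at 82 to 317 bp.

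The stretches around the 5′ ends of 8 such members are shown, since letters of polymerase III promoters recur in them. Each runs from 100 bases upstream to 10 bases into the snoRNA on its own strand, read from the RefSeq WBcel235 genome. Capitals mark a match to an A box pattern and the letters GTTCGA, the core of the B box. GTTCGA had to begin 20 to 70 bases after the start of the A box match. The A box pattern was TRGYNNANNNG, where R is A or G, Y is C or T and N is any base. A match to it need not be a full A box. The first 6 hold both and the last 2 hold neither. The remaining members with a summit nearer the snoRNA, C51F7.4 and smy-2, are not shown and also hold neither in this stretch.
K11C4.6: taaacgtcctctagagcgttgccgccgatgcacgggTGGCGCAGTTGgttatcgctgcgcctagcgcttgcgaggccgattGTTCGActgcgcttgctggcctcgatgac
C51F7.3: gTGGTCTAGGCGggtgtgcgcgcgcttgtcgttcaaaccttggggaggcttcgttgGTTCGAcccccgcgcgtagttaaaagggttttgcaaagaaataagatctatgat
F55A11.10: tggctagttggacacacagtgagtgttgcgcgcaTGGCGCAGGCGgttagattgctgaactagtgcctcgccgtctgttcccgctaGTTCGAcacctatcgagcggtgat
Y43F8C.22: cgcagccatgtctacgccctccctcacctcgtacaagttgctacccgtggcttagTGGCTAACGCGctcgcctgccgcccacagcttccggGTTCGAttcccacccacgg
Y38F2AR.14: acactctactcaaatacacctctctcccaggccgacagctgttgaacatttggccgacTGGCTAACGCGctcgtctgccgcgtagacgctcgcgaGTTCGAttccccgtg
C05D2.15: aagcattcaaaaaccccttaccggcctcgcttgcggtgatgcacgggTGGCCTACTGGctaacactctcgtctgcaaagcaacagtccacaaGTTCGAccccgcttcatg
ZK994.7: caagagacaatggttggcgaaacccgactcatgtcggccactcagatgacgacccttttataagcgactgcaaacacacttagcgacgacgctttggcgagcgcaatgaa
D1046.6: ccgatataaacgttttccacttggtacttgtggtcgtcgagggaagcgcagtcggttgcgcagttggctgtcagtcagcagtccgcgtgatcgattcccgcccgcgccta
They lie at chrV:6888976-6889085, chrV:12303608-12303717, chrV:11782892-11783001, chrV:8500479-8500588 and chrIV:8927165-8927274 on the plus strand and at chrV:19643178-19643287, chrIV:2408626-2408735 and chrIII:5602170-5602279 on the minus strand. For contrast, the same stretch at R151.11, in the first intron of the ribosomal protein gene rpl-6 (chrIII:7208513-7208622, plus strand), holds no capitals, and its summit lies at the rpl-6 promoter.
R151.11: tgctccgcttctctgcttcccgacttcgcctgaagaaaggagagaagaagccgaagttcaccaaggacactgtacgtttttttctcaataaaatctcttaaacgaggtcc

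The member with the strongest peak of its own was ZK994.7 (WBGene00044958), a gene of 67 bp on chromosome V at 8500579 to 8500645. It lies in intron 17 of 21 of pxn-1, which encodes a peroxidasin, an enzyme of the extracellular matrix. The peak, at 8500344 to 8500739, had a signal of 194 and ranked 189 of 1626. Its summit was 37 bp upstream of the snoRNA and 5653 bp downstream of the nearest pxn-1 5′ end. The matched peak had a signal of 89.6 in replicate 1 and 107 in replicate 2. Both replicates thus placed a peak inside the gene, and no IDR summit lay in a pxn-1 window.

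K11C4.6 (WBGene00045084, chromosome V, 6889076 to 6889145, 70 bp) lies in intron 7 of 13 of unc-70, the gene for beta-spectrin of the membrane skeleton. Its peak, at 6888806 to 6889201, had a signal of 94.7 and a summit 72 bp upstream of the snoRNA, 7026 bp from the nearest unc-70 5′ end. The signal was 58.3 in replicate 1 and 38.7 in replicate 2. As printed above, the A box match begins 64 bases upstream of the snoRNA and GTTCGA 19 bases upstream. The summit was 35 bp upstream in replicate 1 and 77 bp upstream in replicate 2.

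The gene frm-7, which encodes a FERM domain protein, holds C51F7.4 (WBGene00219860, 12303599 to 12303693) and C51F7.3 (WBGene00014290, 12303708 to 12303783) one after the other on chromosome V. They shared 1 peak, at 12303438 to 12303833, with a signal of 119, 59.9 in replicate 1 and 58.5 in replicate 2. The summit was 72 bp upstream of C51F7.3 and 37 bp into C51F7.4. C51F7.4 is annotated over an exon of the host and C51F7.3 within intron 4 of 9. The A box match and GTTCGA that begin 99 and 44 bases upstream of C51F7.3 lie within C51F7.4, so the single stretch of letters and the single summit cannot be given to one of the pair.

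Y43F8C.22 (WBGene00045120, chromosome V, 19643050 to 19643187) lies in intron 3 of 4 of Y43F8C.7. Its peak, at 19642987 to 19643382, had a signal of 125, 70.3 in replicate 1 and 58.1 in replicate 2, and a summit 2 bp from the snoRNA 5′ end. Y38F2AR.14 (WBGene00023467, chromosome IV, 2408508 to 2408635) lies in intron 5 of 13 of Y38F2AR.12. Its peak, at 2408514 to 2408909, had a signal of 107, 62.5 in replicate 1 and 45.6 in replicate 2, and a summit 77 bp upstream. For Y43F8C.22 the A box match began 45 bases and GTTCGA 9 bases upstream, and for Y38F2AR.14 they began 42 and 5 bases upstream, so that GTTCGA ran over the annotated 5′ end.

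C05D2.15 (WBGene00197666, chromosome III, 5602054 to 5602179), in intron 4 of 8 of madf-11, was the member with separate summits. Its own peak, at 5602040 to 5602435, had a signal of 78.5, 40.1 in replicate 1 and 32.6 in replicate 2, with the summit 59 bp upstream of the snoRNA. The peak at the madf-11 promoter had a signal of 91.4, 45.2 in replicate 1 and 35.7 in replicate 2, with the summit 338 bp upstream of the host 5′ end. The snoRNA summit was the lower of the pair in both replicates, and its peak ranked 1439, near the end of the IDR list. Of the 7 members with a summit outside every host window, C05D2.15 and K11C4.6 were those that lost it both when replicate 2 stood alone, with its 1626 strongest peaks, and when only IDR peaks above the median signal were used.

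For 3 further members, named after their values were seen, the summit was nearer the snoRNA but also lay in a host window. In each the host has an annotated transcript that starts close by. The summit was 91 bp downstream of the nearest host 5′ end for F55A11.10. It was upstream of that end for the others, by 242 bp for D1046.6 and 359 bp for smy-2. Each of these peaks was 396 bp wide, so nearness does not settle whether the peak belongs to the snoRNA or the host. F55A11.10 (WBGene00014397, chromosome V, 11782992 to 11783082) in F55A11.6 had a summit 33 bp upstream, with a signal of 97.2, 57.7 in replicate 1 and 38.0 in replicate 2. D1046.6 (WBGene00045136, chromosome IV, 8927265 to 8927393) lies in cfim-2, which encodes a subunit of an mRNA cleavage factor. It had a summit 27 bp upstream with a signal of 114, 59.4 in replicate 1 and 52.0 in replicate 2. The gene smy-2 (WBGene00045109, chromosome IV, 9511395 to 9511466) in C33A12.3 had a summit 103 bp upstream with a signal of 81.2. Its symbol is that of the SmY RNAs, small nuclear RNAs of nematodes, though its biotype is snoRNA. Its signal was 35.0 in replicate 1 and 15.5 in replicate 2 for the peaks with a summit within 100 bp. In replicate 2 a stronger peak of 43.1 also overlapped the IDR peak, with its summit 112 bp away, so the lower value rests on the matching distance. With the outermost 5′ end of each host as its only 5′ end, these 3 counted as having a summit outside the host window, and the number of such members was 10 in place of 7.

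The 9 different summits nearer a snoRNA 5′ end had signals of 78.5 to 194 (median 107), against 73.6 to 793 (median 145) for the 37 other summits in host windows and a median of 105 for all nuclear IDR peaks. In replicate 1 they ranged from 35.0 to 89.6 (median 59.4), and the other host summits from 21.2 to 373 (median 75.2). In replicate 2 they ranged from 15.5, the matched peak of smy-2, to 107 (median 45.6), and the 35 matched host summits from 20.8 to 424 (median 76.3). The peaks at snoRNA genes were thus of middling strength in the list, and the groups overlapped in both replicates.

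**Figure D3:**
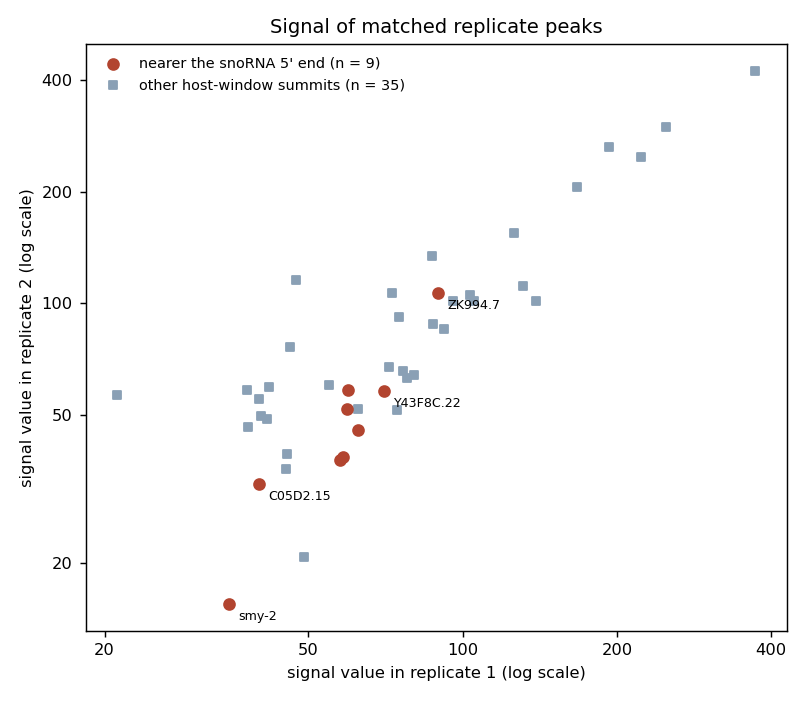
Signal value in replicate 1 and replicate 2 (both log scale) of the replicate peaks whose summits lay within 100 bp of an IDR summit, for 9 summits nearer a snoRNA 5′ end (circles) and 35 other summits in host windows (squares). The circles lie between 35.0 and 89.6 in replicate 1 and between 15.5 and 107 in replicate 2, inside the spread of the squares except for the matched peak of smy-2 at 15.5, beside which a peak of 43.1 overlaps the same IDR peak.

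Summits within 100 bp upstream were also the most frequent at snoRNA genes without a host. Within 100 bp upstream of their 5′ ends the 183 members had 7 IDR summits, 5 of them in no host window. In the first 100 bp downstream 2 were counted. Summits are counted for each member, so the summit shared by C51F7.3 and C51F7.4 is in both counts. Between 300 and 1000 bp upstream the summits were mostly in host windows. Of the 24 snoRNA genes outside protein-coding genes that had a summit in their window, 17 had it within 100 bp upstream, with signals for all 24 of 72.7 to 194 (median 110) and a median distance of 64.0 bp. Of the 33 snoRNA genes inside a protein-coding gene on the other strand only, 3 had a summit in their window. These 3, T03F7.8, C27H5.9 and C04G6.12, all had it within 100 bp upstream.

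**Figure D4:**
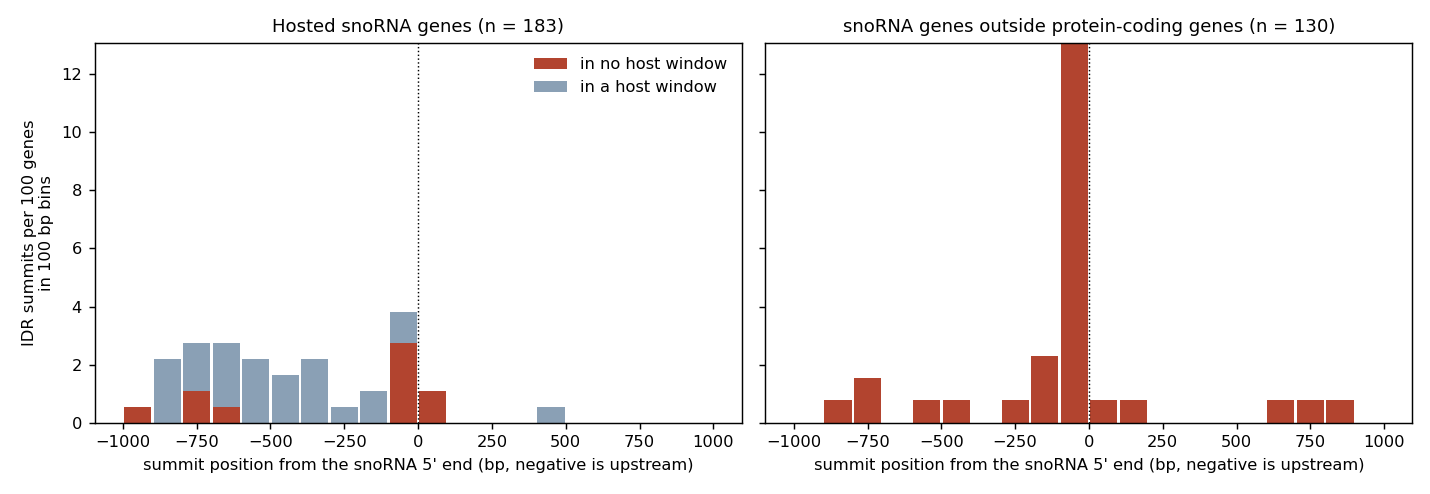
IDR summits per 100 genes in 100 bp bins by position from the snoRNA 5′ end (negative is upstream), for 183 hosted members (left) and 130 snoRNA genes outside protein-coding genes (right), with colours for summits in a host window and in none. A summit is counted for every gene near it, so a peak shared by members of a host appears more than once. Hosted members show summits spread over the upstream side, mostly in host windows, and a group of 7 within 100 bp upstream. The genes without a host have 17 in that bin. Windows of neighbouring protein-coding genes are not coloured, and some of these summits lie in them.

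The letters printed above were counted in all members. A match to the A box pattern given above, followed by GTTCGA on the strand of the gene, was counted. It was present at 6 of the 10 members whose summit was nearer the snoRNA, against 6 of the 173 other members, or 3.47%. Among snoRNA genes outside protein-coding genes it was present at 5 of the 24 with a summit in their window and 3 of the 106 without. It was present at 6 of 19973 protein-coding 5′ ends, or 0.0300%, and at 9 of 9080 other non-coding genes except piRNA genes, or 0.0991%. The search ended 10 bp after the 5′ end. Letters further inside a gene, such as boxes within a non-coding gene, were not counted, so these shares do not say how often genes hold them. The A box alone was at 6 of the 10 and 25 of the 173, and at 3.39% of protein-coding 5′ ends. GTTCGA alone was at 6 of the 10 and 8 of the 173, and at 1.61% of protein-coding 5′ ends. Searched on both strands from 100 bases upstream to the 3′ end, GTTCGA was at 7 of the 10 and 21 of the 173, and the longer GGTTCGA, which contains it, at 3 and 9. C51F7.3 and C51F7.4 hold the same copy, which is counted for both in the 7 and in the 3. A run of TTTT, the letters at which polymerase III ends transcription, stood within 20 bases after the 3′ end of 8 of the 10 members and 70 of the 173, or 40.5%. The A box and the spacing were chosen after the sequences were seen. A match of letters is a description and not a site, and no test was run.

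**Figure D5:**
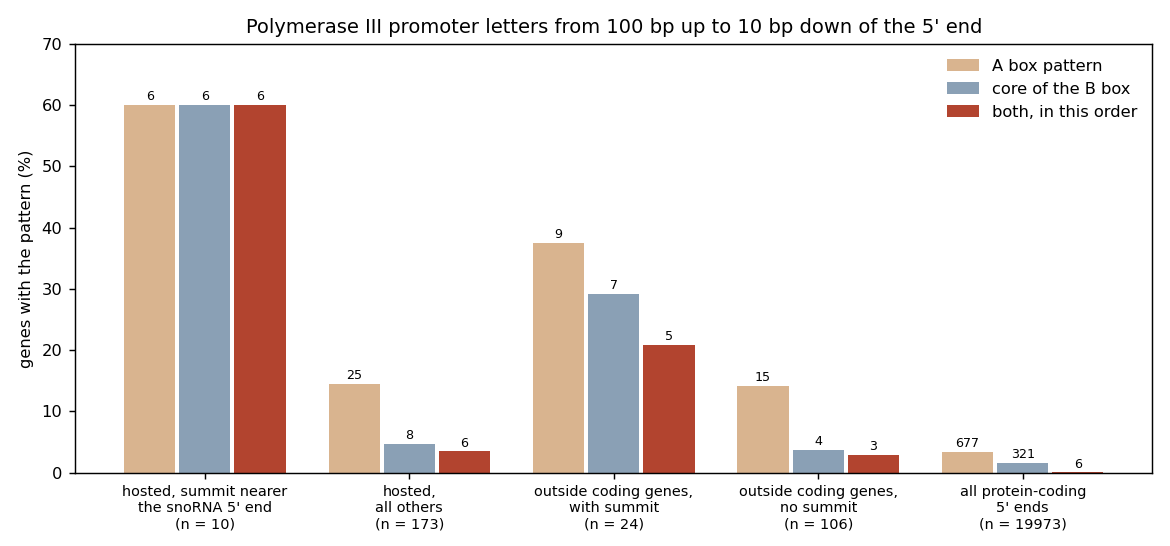
Percentage of genes with a match to the A box pattern, with the core of the B box, and with both in this order, between 100 bp before and 10 bp after the 5′ end, with the number of genes above each bar. Both occur in order at 6 of 10 hosted members with a summit nearer the snoRNA and at 6 of the 173 others.

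The 6 other members that hold both letters had no IDR summit nearer their 5′ end. In the pooled list, 5 of them had a summit in their own window, and 2 had one in each replicate. M106.6, in the condensin subunit gene mix-1, had a pooled signal of 41.7 with a summit 79 bp upstream, 22.1 in replicate 1 and 23.6 in replicate 2. T24H7.6 had a pooled signal of 34.4, 24.2 in replicate 1 and 19.1 in replicate 2. T23B12.13, in the mitochondrial ribosomal protein gene mrps-2, had no summit in its window in the pooled list or in either replicate. Both letters thus occurred without a listed peak too. Over all members, 32 of 183, or 17.5% (12.28 to 23.8), had a summit of each replicate list in their own window, beside 13.3% of all non-coding genes except piRNA genes, a share inside that interval. The share was 11.7% (164 of 1403) for other non-coding genes inside a protein-coding gene on the same strand and 34.6% (45 of 130) for snoRNA genes outside protein-coding genes. These 32 held all 10 members with a summit nearer the snoRNA and 13 of the 124 members with no IDR summit in any window.

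Letters that mark the snoRNA class were sparse in the annotated genes. TGATGA, the C box, in the first 20 bases together with CTGA, the D box, in the last 20 was found in 2 of the 10 members (C51F7.3 and F55A11.10) and 4 of the 173. ACA at the third base from the 3′ end was found in 3 of the 10 (Y43F8C.22, D1046.6 and C05D2.15) and 42 of the 173. The remaining 5 of the 10 matched neither class. Members with letters of each class were thus among the 10. The summit of C51F7.3 was shared with C51F7.4, however, and that of F55A11.10 also lay in a host window. A peak of its own is therefore not clear for either member with C and D box letters. The snoRNAs of C51F7.3 and C05D2.15 are shown with those letters in capitals.
C51F7.3: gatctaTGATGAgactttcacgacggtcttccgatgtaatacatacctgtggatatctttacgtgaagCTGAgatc
C05D2.15: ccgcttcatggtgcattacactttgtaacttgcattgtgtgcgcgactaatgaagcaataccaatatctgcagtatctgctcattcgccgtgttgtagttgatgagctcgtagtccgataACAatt

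The 10 members whose summit was nearer the snoRNA, 3 of them with that summit also in a host window, were compared by their place in the host. Introns are numbered and measured throughout in the longest host transcript that spans the snoRNA. By that numbering none of the 9 in an intron was in the first intron. The first intron held 11 of 45 intronic members with a summit at the host only or nearer it and 21 of 90 with no summit. F55A11.10, among the 9, starts 124 bp after its nearest host 5′ end and 82 bases after its intron start. In a transcript from that 5′ end it may lie in an earlier intron, so the lack of first introns can rest on the transcript chosen. For the 9 there were 82 to 741 bases from intron start to snoRNA (median 231). In the second group there were 6 to 1290 (median 33) and in the third 21 to 15843 (median 223). The introns of the 9 were 201 to 1466 bases long (median 358), against medians of 226 and 797 bases. The median host was 4491 bp long, against 2204 bp and 6679 bp. The second group thus had the shortest introns and hosts by these medians. Members with a summit nearer the snoRNA and those with no summit had medians alike in distance from the intron start. Host length and distance bear on which window a summit can fall in, and their part was not tested.

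Other letters were counted around the summits. Within 50 bp of the summit and on either strand, GTTCGA was at 3 of the 9 summits nearer a snoRNA, 2 of the 37 other host summits and 4.59% of all 1611. GGGCGG was at 3 of 9, at 0 of 37, which allows a share of up to 8.11%, and at 6.58% of all. CGAGACC was at 0 of 9, which allows up to 33.3%, at 7 of 37, or 18.9%, and at 6.83% of all. GCGTCTC was at 0 of 9, 3 of 37 and 11.9% of all, and GAGAGA at 1 of 9, 3 of 37 and 28.1% of all. With 9 summits these counts give no order among the motifs.

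Of the 40 hosts with a summit in a window of their own, 12 encode proteins of the cytosolic ribosome. In 3 of the 40 (F55A11.6, cfim-2 and C33A12.3) the summit was the one nearer the snoRNA described above, and in 37 it was another. Ribosomal protein genes are here those of the cytosolic ribosome, so that mrps-2, a host with no summit, is not among them. They were 13 of the 159 hosts and held 19 members. A summit lay in the window of 12 of the 13, or 92.3% (64.0 to 99.8), against 50 of 68 ribosomal protein genes that host no snoRNA and 76.5% of all 81, so the hosts' share was near that of their family. They were rpl-15 (signal 555), rps-12 (455), rpl-24.1 (237.03), rps-4 (206), rpl-6 (201), rpl-4 (181), rpl-7A (176), rps-23 (170), rpl-7 (140), rps-13 (117), rpl-26 (112) and rpl-2 (89.3). The exception was rps-29, which holds 2 members. The gene ubl-1 (143), which encodes a ubiquitin-like protein fused to a ribosomal protein, was not in the list and is counted with the other hosts. For 9 of these 12 the summit also lay in the window of another protein-coding gene.

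In rpl-15 the peak spanned 654783 to 655069 on chromosome IV, with a signal of 250 in replicate 1 and 299 in replicate 2, with the summit 340 bp upstream of the gene. Its members K11H12.13 and K11H12.12 had no summit in their own windows. In rps-12 the peak, on chromosome III at 5679031 to 5679250, had 193 in replicate 1 and 264 in replicate 2. It fell in the window of the member F54E7.10, 238 bp upstream of it, and not in that of F54E7.11, the second member of the same gene. All 3 members of rpl-6 (R151.11, R151.12 and R151.13) shared a host with a single peak of 95.9 in replicate 1 and 101 in replicate 2, which lay in the own window of R151.11 alone. Of the 9 members whose own-window summit was nearer the host, 7 were in the first intron and 6 had a ribosomal protein host.

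Of the 146 hosts that are not ribosomal protein genes, 28, or 19.2% (13.1 to 26.5), had a summit, beside 6.69% of all protein-coding genes. The 28 include F55A11.6, cfim-2 and C33A12.3, in which the summit was nearer the snoRNA. The highest was cdc-48.1, an AAA ATPase that extracts ubiquitylated proteins and the host of C06A1.8 and C06A1.9, with a signal of 793, rank 2 in the IDR list, 373 in replicate 1 and 424 in replicate 2. The translation factor gene iff-2 (eIF5A), host of F54C9.12, had a signal of 460, with 223 in replicate 1 and 247 in replicate 2. The gene hsp-1, a constitutive Hsp70 and host of F26D10.24, had 373, with 168 in replicate 1 and 206 in replicate 2. Each of these promoters was thus high in both replicates, and none of the 4 members had an IDR summit in its own window, though a replicate 1 summit lay 499 bp upstream of C06A1.9.

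Lower in the list came wwp-1 (signal 282), a HECT-type ubiquitin ligase, fbxl-2 (241), an F-box protein, and eef-1G (236.6), elongation factor 1 gamma. The eef-1G peak had a signal of 136 in replicate 1, and no peak of replicate 2 overlapped it. The same held for rpl-26, with 52.6 in replicate 1. The summit of tmem-107 (218), a gene for a transmembrane protein of the cilium base, was also within a window of rps-26, a ribosomal protein gene. Among the 28 hosts, 17 had a summit in no other protein-coding window, and 11 shared it with another gene. The shared genes included the cytosolic ribosomal protein gene rps-26 for tmem-107 and the mitochondrial ones mrpl-17 for vbh-1 and mrps-6 for rpn-8. In all, 39 of the 40 hosts had the summit upstream of the nearest host 5′ end, with a median distance of 206 bp. A summit of each replicate list was in a window of 61 of the 159 hosts, or 38.4% (30.8 to 46.4), beside 15.2% of all protein-coding genes.

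Genes for the proteins that bind snoRNAs or assemble their complexes had an IDR summit in a window in 8 of 10 cases, beside 6.69% of all protein-coding genes, in a list chosen with earlier results of these data known. Of the box C/D proteins, fib-1 (fibrillarin, the methyltransferase) had a signal of 230, 121 in replicate 1 and 112 in replicate 2. The scaffold protein gene nol-58 had 162, with 82.1 and 91.7 in replicates 1 and 2, and snu-13 had 135, with 60.0 and 74.9. The scaffold protein gene nol-56 had 101, with 41.8 and 59.4, and is itself the host of 4 members. They are K07C5.11, K07C5.12, K07C5.10 and K07C5.18, and only K07C5.11, in the first intron, had the host summit in its own window, 311 bp upstream. Each of these promoters had a peak in both replicates.

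Of the H/ACA proteins, Y48A6B.3 (the NHP2 protein) had a signal of 210, 97.5 in replicate 1 and 114.8 in replicate 2. The dyskerin gene dkc-1 had 102, with 67.6 and 33.4, and garr-1 (the GAR1 protein) had 73.2, with 29.2 and 37.8, close to the lowest signal of the IDR list. The gene nola-3 (the NOP10 protein) had no IDR summit. Of the assembly helicases, ruvb-2 had 134, with 59.9 and 68.6, and ruvb-1 had none. All 10 genes had a summit of each replicate list in a window, beside 15.2% of all protein-coding genes. The summits of fib-1, nol-58, snu-13, dkc-1 and Y48A6B.3 also lay in the window of another protein-coding gene.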

How the data were processed

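Sites of eGFP-tagged NHR-237 were mapped by ChIP-seq in mixed-stage embryos, in 1 group of 2 biological replicates. Per the deposited listings, the optimal IDR list derives from the pooled list and both replicate lists, which are inputs to that procedure. The aligner, caller and IDR threshold were not given in the sources used here. A signal value per peak was deposited by the authors, and it was not rescaled. Lists on build ce11 were used, those on ce10 were not, and positions are 1-based. All peaks fit within the chromosomes of the RefSeq WBcel235 sequence, and gene models were those of Ensembl release 115. A summit lying within 100 bp matched peaks of different lists.

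The 3 main counts, with 95% Clopper-Pearson intervals, were members and hosts with an IDR summit in their windows and members with one outside every host window. No test was run, since the samples form 1 group. The alternatives were other windows, overlap in place of the summit, the midpoint, other peak lists, each replicate alone (its 1626 peaks of highest signal), members in introns only and other sets of host 5′ ends. Named were the members with a summit of their own, the 10 hosts of highest signal, ribosomal protein hosts and snoRNP protein genes with a summit; other genes were picked out after seeing their values. The members and lists were chosen with earlier results of these data known. Of the snoRNP genes, 3 were matched through the RefSeq gene table. The counting was tested on simulated data. Scripts ran under Python 3.11.15 with scipy 1.17.1, pandas 2.3.3, numpy 2.4.6 and matplotlib 3.10.9.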

Additional observations from a re-analysis of the deposited data

How the results depend on the processing

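The number of members with a summit outside every host window was 7 of 183, or 3.83%, with no matching count for other genes. It stayed between 5 and 10 under the alternatives on the IDR list and on each replicate alone. With the window of 300 bp and 100 bp, where smy-2 joined, it was 8. It was 7 with windows of 1000 bp and 200 bp, with peak overlap and with the midpoint. Against the 5′ ends of any protein-coding gene it was also 7. Members with a summit in their own window, 19, were 12 with 300 bp and 100 bp and 38 with 1000 bp and 200 bp. Hosts with a summit, 40, were 32 and 52 with these windows. With the outermost host 5′ end only, 33 hosts had a summit. With all peaks of the pooled list, which includes background regions, the counts were 68 members with a summit in their own window, 93 hosts and 49 members with a summit outside every host window. Leaving out a replicate gave 15 to 19 members, 36 to 41 hosts and 5 to 7 members with a summit outside every host window. No paired analysis was possible because the samples form a single group. Read depth per library was not analysed here, so how far it limits weaker peaks is unknown.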
